A study of Homo sapiens with 8 samples.

Results

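The genes described here are 9 regulators and markers of the endocrine lineage of the pancreas, NEUROG3, NEUROD1, INSM1, RFX6, FEV, PAX4, PAX6, ISL1 and CHGA, out of 20033 protein-coding genes. They were chosen by name, and every H3K27ac peak inside the gene or up to 50 kb beyond its ends was taken from each of the 4 peak lists, so that a gene without a peak is part of the description. H3K27ac, acetylation of lysine 27 of histone H3, marks active promoters and enhancers, and a peak is an interval where ChIP reads exceed the input at a q-value of 0.05. The cells were pancreatic progenitors (PPs) differentiated from MEL1, a human embryonic stem cell line that carries a GFP reporter in the insulin gene. All groups were kept in the basal medium EF6, which contains B27, EGF, bFGF and 616452, an inhibitor of TGF-β receptor signalling, and received for 7 days either the vehicle DMSO or I-BET151 at 1 μM. The compound blocks the bromodomains of BET proteins, through which these proteins bind acetylated histones. Each treatment had 2 H3K27ac libraries, and the 4 input libraries entered only through the peak calls. Nothing in the labels says that the 2 libraries of a group came from separate cultures, so that p-values measure the spread between these libraries only, and with 2 against 2 no exact permutation p below 0.33 is possible. PP cultures derived from stem cells are mixed, and in such bulk samples fewer cells with an acetylated locus and less acetylation per cell cannot be told apart.

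Endocrine cells of the pancreas arise from PPs that switch on NEUROG3, a basic helix-loop-helix factor that starts the endocrine program and is then shut off. NEUROG3 turns on a cascade of factors, among them NEUROD1, INSM1, RFX6, FEV and PAX4, which carry cells out of the cycle and toward hormone-producing fates. PAX6 and ISL1 are needed for mature islet cells, and CHGA is a protein of the granules in which hormones are stored. PPs that keep dividing hold PDX1, NKX6-1 and SOX9 active and have not entered this cascade, so that the loci ask how much of it carries the acetylation mark under either treatment.

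Of the starts described here, 4 are shown as the 250 bases before the RefSeq transcription start (GRCh38.p14), 5′ to 3′ on the gene's own strand. Entries were found for 7 of the 9 genes, all but RFX6 and INSM1. NEUROG3 (minus strand, chr10:69573423-69573672) and ISL1 (plus strand, chr5:51383198-51383447) are shown as starts in windows without any peak. PAX4 (minus strand, chr7:127618143-127618392) is shown as a start whose neighbours carried peaks, and GCC1 (minus strand, chr7:127585597-127585846) as the neighbouring start whose peak was listed in DMSO only. Capitals mark matches to a motif on either strand.
NEUROG3: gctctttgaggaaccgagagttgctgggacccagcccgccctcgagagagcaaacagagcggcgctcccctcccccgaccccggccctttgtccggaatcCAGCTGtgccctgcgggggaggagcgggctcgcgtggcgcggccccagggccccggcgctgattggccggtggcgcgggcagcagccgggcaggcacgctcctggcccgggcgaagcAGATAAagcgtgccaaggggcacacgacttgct
ISL1: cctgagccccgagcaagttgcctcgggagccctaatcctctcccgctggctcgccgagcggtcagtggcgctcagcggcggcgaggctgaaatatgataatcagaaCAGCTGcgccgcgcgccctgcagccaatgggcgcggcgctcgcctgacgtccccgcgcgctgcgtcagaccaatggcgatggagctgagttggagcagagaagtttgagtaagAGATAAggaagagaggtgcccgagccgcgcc
PAX4: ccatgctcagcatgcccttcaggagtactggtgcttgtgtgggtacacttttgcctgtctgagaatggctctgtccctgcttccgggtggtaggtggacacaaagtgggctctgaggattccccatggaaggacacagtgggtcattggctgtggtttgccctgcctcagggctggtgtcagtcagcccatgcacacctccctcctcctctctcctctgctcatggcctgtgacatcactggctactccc
GCC1: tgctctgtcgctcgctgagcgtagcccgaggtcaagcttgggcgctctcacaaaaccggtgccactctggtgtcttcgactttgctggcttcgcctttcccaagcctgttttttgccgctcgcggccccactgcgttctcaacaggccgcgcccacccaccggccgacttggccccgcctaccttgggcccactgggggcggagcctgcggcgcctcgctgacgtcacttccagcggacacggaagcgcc

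In the NEUROG3 and ISL1 promoters the capitals mark an E-box, CAGNTG, the site class of basic helix-loop-helix factors, and a GATA motif, AGATAA. Among all 35116 promoters of this length 42.5% held the E-box and 9.17% held the GATA motif. The other motifs searched were FOXA as TGTTTAC, SOX as ACAATG, AP-1 as TGANTCA, a homeodomain motif as TAATTA and ONECUT as ATTGAT, which 2.98%, 9.29%, 6.57%, 4.35% and 5.58% of promoters held. The FEV promoter had 1 homeodomain match and the CHGA promoter 1 E-box, and the NEUROD1, PAX4 and GCC1 promoters had no match to any of the 7. The PAX6 entry, which also had none, belongs to a start 1363 bp from the canonical one used for distances. The promoters differed in base composition. The G and C content was 72% at NEUROG3 and FEV, 70% at NEUROD1, 68.8% at CHGA and 65.2% at ISL1, against 58% at PAX4, which is also the median of all promoters. PAX4 held 1 CpG, an observed-to-expected ratio of 0.0477, whereas ISL1 had a ratio of 1.02, NEUROG3 0.772 and the median promoter 0.558. NEUROG3 and ISL1, both without a peak, thus had a higher CpG ratio than the median promoter.

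The endocrine loci were nearly bare of H3K27ac peaks in both treatments. In 7 of 9 windows, those of NEUROG3, NEUROD1, INSM1, FEV, PAX6, ISL1 and CHGA, no library had a peak, whereas 24.2% of all protein-coding loci had none. No gene had a peak summit within 3 kb of an own transcription start in all 4 libraries, against 46.9% of protein-coding genes, and 8 of 9 had none in any library, against 43.9%. The windows held 5 merged regions in all, of which 4 lay around PAX4 and 1 at RFX6. RFX6 was the only member with a peak at its own start, and that peak stood in both I-BET151 lists and was missing from both DMSO lists. A missing peak means that no interval passed the threshold at a depth of 7.76 to 9.84 M ChIP reads per library (M, the SI prefix mega), not that acetylation was absent. Where the input was at its genome-wide level, a peak needed 10 or 11 reads, or 1.12 to 1.42 per M ChIP reads, while the median listed peak had 22.4 to 25.4 per M at its summit. At the higher local input of the RFX6 and GCC1 peaks, libraries without them would have needed 7.99 to 11.3 per M. The input at the 7 windows without a peak was not examined.

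**Figure D1:**
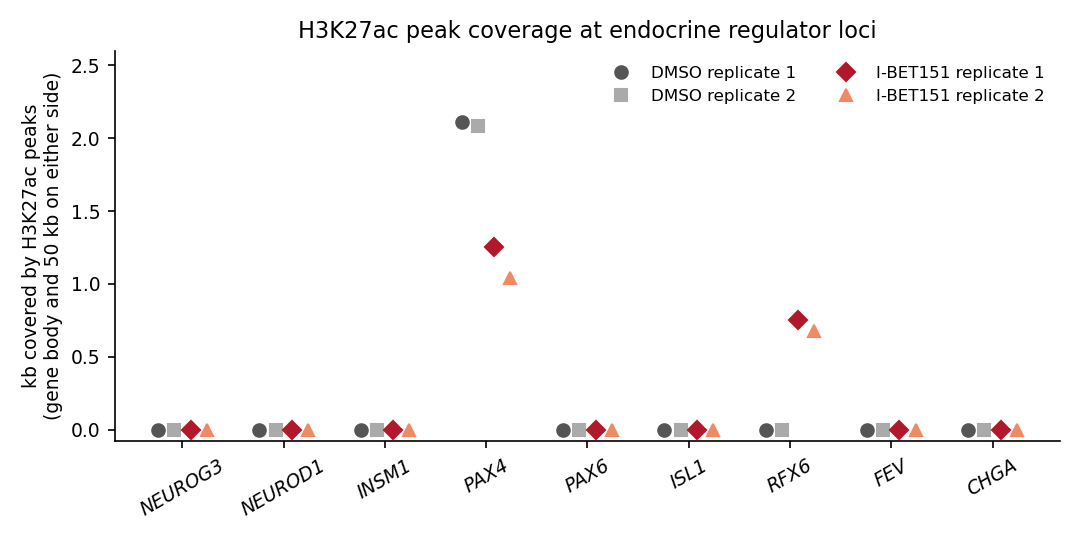
Length covered by H3K27ac peaks inside each gene and up to 50 kb beyond its ends, in kb, with 1 point per library. The points of 7 genes lie at 0 in all 4 libraries, those of PAX4 are at 2.11 and 2.09 kb in the DMSO libraries against 1.25 and 1.04 kb in the I-BET151 libraries, and those of RFX6 are at 0 in DMSO and at 0.753 and 0.675 kb in I-BET151.

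NEUROG3, the factor that starts the program, lies on chromosome 10 (minus strand, 69571698 to 69573422). No peak covered its window in any library. The nearest peak was 121 kb away in DMSO replicate 1, at the start of TSPAN15, a tetraspanin. In the other libraries a nearer peak lay at the start of FAM241B, 56.8 kb away in DMSO replicate 2, 56.8 kb in I-BET151 replicate 1 and 56.9 kb in I-BET151 replicate 2. The FAM241B peak had 14.0 ChIP reads per M at its summit in DMSO replicate 2 (95% exact Poisson interval 11.8 to 16.6), 20.0 (17.0 to 23.4) in I-BET151 replicate 1 and 23.3 (20.1 to 26.8) in I-BET151 replicate 2. It was missing from the list of 1 DMSO library and was lower in the other than in both I-BET151 libraries, and these intervals cover counting error only.

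NEUROD1, a direct target of NEUROG3 that keeps endocrine genes active, lies on chromosome 2 (minus strand, 181668295 to 181680827). Its start was 211 kb from the nearest peak in all 4 libraries, the one at the start of ITPRID2. Peaks on either side, near UBE2E3 and ITPRID2, left a span of 910 kb without a peak in each library. INSM1, a zinc finger factor of early endocrine cells, lies on chromosome 20 (plus strand, 20368104 to 20370949). The nearest peak was 316 kb away in every library, at CRNKL1, a splicing factor gene, and the span without a peak was 660 kb. Of all protein-coding genes, 86.4 to 87.4% had a nearer peak than NEUROD1 and 91.0 to 91.5% a nearer one than INSM1. The peaks that bound these spans were listed in all 4 libraries.

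FEV, an ETS factor of endocrine precursors, lies on chromosome 2 (minus strand, 218981087 to 218985184). The nearest peak lay 73.9 kb away in DMSO replicate 1, 74.0 kb in DMSO replicate 2, 73.9 kb in I-BET151 replicate 1 and 74.6 kb in I-BET151 replicate 2. It covered the start of IHH, a Hedgehog ligand, and had 30.1 and 27.5 summit reads per M in DMSO and 25.01 and 27.74 in I-BET151. The ranges of both groups overlapped.

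PAX6, which endocrine cells need to express hormone genes, lies on chromosome 11 (minus strand, 31784779 to 31817961). All 4 libraries had their nearest peak 280 kb away, at RCN1, and a span of 581 kb between peaks near ELP4 and RCN1 was empty. ISL1, a LIM homeodomain factor of islet cells, lies on chromosome 5 (plus strand, 51383448 to 51394730). Its start was the most remote of the 9, with 1405 kb to the nearest peak, at PELO, in all 4 libraries, and 98.8 to 98.9% of protein-coding genes had a nearer one. On the other side the next peak lay beyond the centromere, near MRPS30. CHGA, the granule protein, lies on chromosome 14 (plus strand, 92923150 to 92935285). Its nearest peaks lay inside or at the start of ITPK1, 112 and 111 kb away in DMSO and 112 and 96.3 kb away in I-BET151. The peak that both DMSO libraries listed 112 and 111 kb from CHGA had 9.42 (7.41 to 11.8) and 8.54 (6.81 to 10.6) summit reads per M, below the median listed peak of either library.

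**Figure D2:**
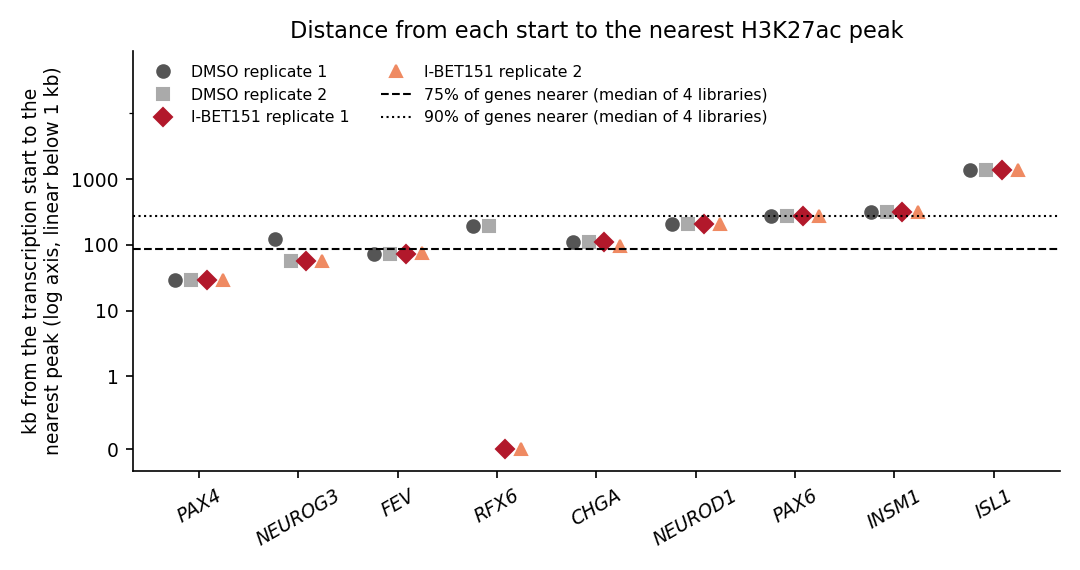
Distance in kb from the canonical transcription start of each gene to the nearest H3K27ac peak (log axis, linear below 1 kb), 1 point per library, with the distances under which 75% and 90% of all protein-coding genes have a peak (median of the 4 libraries). RFX6 is at 0 kb in both I-BET151 libraries and near 196 kb in both DMSO libraries, and ISL1 stands highest at 1405 kb.

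Across the genome the median distance from a protein-coding start to the nearest peak was 3.15 and 1.53 kb for the DMSO libraries, 5.26 and 6.82 kb for the I-BET151 libraries, and 75% of genes had a peak within 80.3 to 91.9 kb. NEUROD1, INSM1, PAX6, ISL1 and CHGA lay beyond the 75% distance in every library. RFX6 did so in both DMSO libraries and NEUROG3 in DMSO replicate 1, and FEV and PAX4 lay within it in all 4.

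RFX6 was the exception among the 9. RFX6 is a winged-helix factor of the RFX family that acts downstream of NEUROG3 in islet development and is also present earlier, in gut endoderm. The gene lies on chromosome 6 (plus strand, 116877212 to 116932161, canonical start at 116877242). Peaks covered 0 bp of its window in DMSO replicate 1, 0 bp in DMSO replicate 2, 753 bp in I-BET151 replicate 1 (chr6:116876879-116877631) and 675 bp in I-BET151 replicate 2 (chr6:116876878-116877552). The groups did not overlap. The mean was 0.714 ± 0.0552 kb in I-BET151 (SD, n = 2) against 0 kb in both DMSO libraries (exact permutation test, two-sided, p = 0.33). With no peak listed in DMSO, the DMSO values have no spread, so that the difference cannot be weighed against it. Both peaks spanned the start. They reached 363 and 364 bp upstream of it and covered 34 bp of 5′ UTR and 223 bp of coding sequence in exon 1, followed by 133 and 54 bp of intron. The summits lay 166 and 62 bp downstream of the start, inside the coding part of exon 1.

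The RFX6 peaks were of ordinary height in summit reads per M. The fold enrichment over local input, as given by the authors, was 5.65 and 4.53, and the −log10 q-value was 29.0 and 21.5. Both folds were below the median fold of all listed peaks, 6.37 in I-BET151 replicate 1 and 6.42 in I-BET151 replicate 2. Ranked by p-value they stood at place 6454 of 12887 and 7586 of 12312, or 50.1% and 61.6% down the list. The first was thus in the middle of its list and the second in the weaker part. The summits held 185 ChIP reads in I-BET151 replicate 1 and 202 in I-BET151 replicate 2, or 23.8 (95% exact Poisson interval 20.5 to 27.5) and 25.1 (21.8 to 28.8) per M. The local input was high, 12 and 14 reads or 42.0 and 56.9 times the genome-wide level, which raises the number of reads a peak needs. If the DMSO inputs were as high at this place, a DMSO peak would have been listed from 74 to 90 reads in replicate 1 and from 85 to 106 in replicate 2, or 8.64 to 11.3 per M. The summit reads of both I-BET151 libraries, with their intervals, lay above that range. A listed peak has to pass a limit of this kind in its own library, so that this order is no test of a difference. The signal of the DMSO libraries below that range was not analysed here.

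The RFX6 start stood alone in its surroundings. In all 4 libraries the flanking peaks lay near KPNA5, an importin gene, and DCBLD1, and apart from the RFX6 peak nothing was called in the 801 kb between them. Of the 20033 protein-coding genes, 0.923% had a peak at an own start in both I-BET151 libraries only, and 2.27% in both DMSO libraries only. RFX6 was 1 of 9 members in the first class and 0 of 9 fell in the second. Among the 185 genes of the first class RFX6 ranked 15 by the lower of its −log10 p-values, and by fold it ranked 41 in I-BET151 replicate 1 and 73 in replicate 2. The median fold of that class was 3.90 and 4.13 and its median peak width 412 and 418 bp. The RFX6 peak was thus higher in fold and wider than the median peak of this class, though below the median fold of all listed peaks. Covered length was above DMSO in both I-BET151 libraries at 1 of 9 loci, against 9.49% of all loci, and 1 of the 5 regions was gained, meaning called only in both I-BET151 libraries, against 2.81% of 15752 merged regions.

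**Figure D3:**
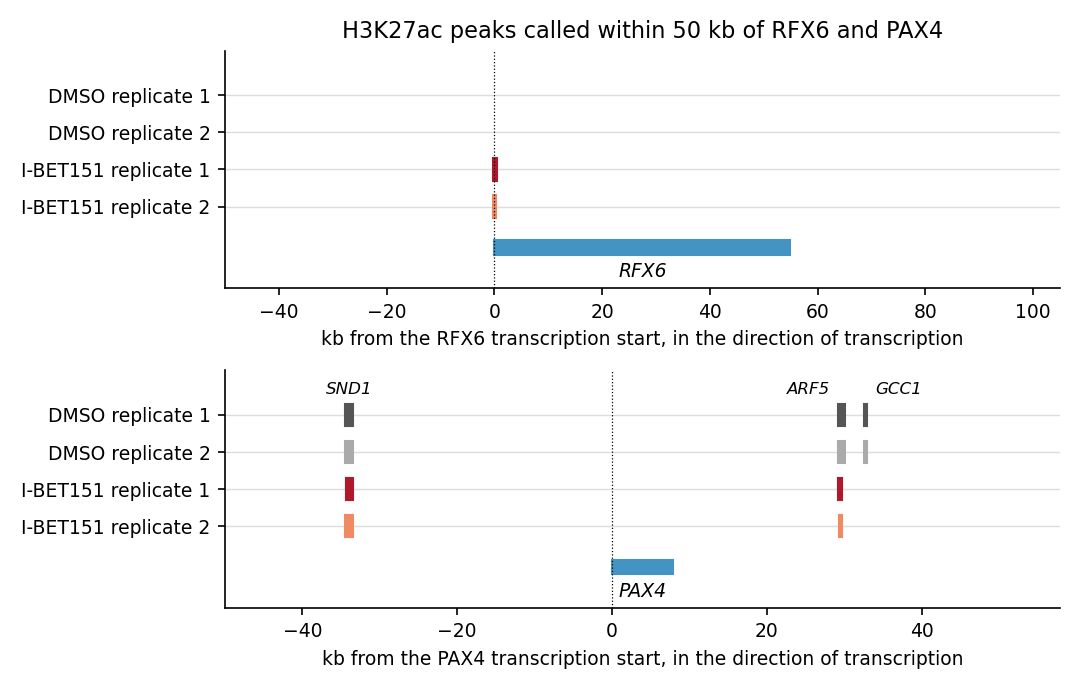
Peaks of each library in the windows of RFX6 and PAX4, by distance in kb from the canonical start in the direction of transcription, with the gene body in blue (peaks narrower than 0.35 kb are drawn at that width). The RFX6 window holds 1 peak at the start in each I-BET151 library, and the PAX4 window holds peaks at the starts of SND1, ARF5 and GCC1, the last in DMSO only, and none at PAX4.

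PAX4, a repressor that directs endocrine precursors toward beta and delta cells, lies on chromosome 7 (minus strand, 127610292 to 127618142). It had no peak at its own start in any library, and the nearest was 29.1 to 29.3 kb away. Its window was covered over 2.11 kb in DMSO replicate 1, 2.09 kb in DMSO replicate 2, 1.25 kb in I-BET151 replicate 1 and 1.04 kb in I-BET151 replicate 2. Both I-BET151 libraries were below both DMSO libraries. The means were 2.0995 ± 0.0205 and 1.15 ± 0.151 kb (SD, n = 2 each), a difference of −0.953 kb (exact permutation test, two-sided, p = 0.33). Such an order was common, since 33.7% of all protein-coding loci had lower covered length in both I-BET151 libraries. All of this coverage stood at the starts of neighbouring genes of broad function. GCC1 encodes a Golgi protein, ARF5 a small GTPase of vesicle traffic, and SND1 an RNA-binding nuclease domain protein.

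The GCC1 start, whose promoter is printed above, carried a peak in DMSO only. The region (chr7:127585165-127585594) had 188 summit reads in DMSO replicate 1, or 23.6 per M (20.4 to 27.2), and 222 in DMSO replicate 2, or 22.6 per M (19.7 to 25.7). The fold enrichment was 5.86 and 4.14. With the local input of the DMSO libraries, an I-BET151 peak would have been listed from 7.99 to 11.0 reads per M. The region was 1 of 5 that was lost, meaning called only in both DMSO libraries, against 8.6% of all merged regions.

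The other PAX4 window regions were called in all 4 libraries. At ARF5 (chr7:127587998-127588994) the summit had 36.1 and 32.6 reads per M in DMSO and 24.2 and 26.9 in I-BET151. The region between SND1 and its divergent transcript SND1-DT (chr7:127651621-127651958) had 16.3 and 20.4 against 15.7 and 15.4, and the region at the SND1 start (chr7:127652145-127652615) had 26.9 and 27.4 against 18.8 and 20.7. In each region both I-BET151 libraries were below both DMSO libraries. On the SND1-DT side, the 95% Poisson intervals of DMSO replicate 1 (13.6 to 19.4) and of both I-BET151 libraries (13.1 to 18.8 and 12.8 to 18.4) overlapped. At ARF5 the intervals of DMSO replicate 2 (29.2 to 36.4) and I-BET151 replicate 2 (23.4 to 30.7) overlapped. At the SND1 start those of DMSO replicate 1 (23.4 to 30.7) and I-BET151 replicate 2 (17.6 to 24.0) did. Other pairs of a DMSO and an I-BET151 library did not overlap at ARF5 or the SND1 start. The ratio of the I-BET151 to the DMSO mean was 0.744, 0.848 and 0.727 (exact permutation test, two-sided, p = 0.33 for each). Of 9912 regions called in all 4 libraries genome-wide, 31.1% had both I-BET151 libraries below and 30% had both above, with a median ratio of 1.00. The ARF5 peak was also narrower in I-BET151, 533 and 391 bp against 934 and 997 bp.

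**Figure D4:**
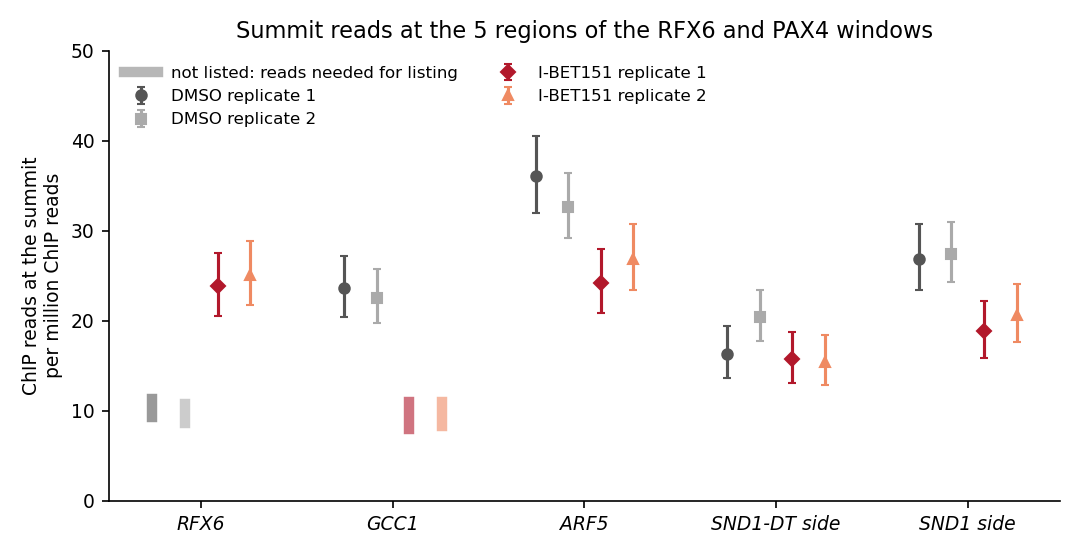
ChIP reads at the peak summit per M ChIP reads in each library, with 95% exact Poisson intervals, for the 5 regions of the RFX6 and PAX4 windows. Thick bars show, for libraries without a listed peak, the reads needed for listing at the local input of the libraries that listed it, 8.64 to 11.3 per M at RFX6 and 7.99 to 11.0 at GCC1.

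Averaged over the 9 windows, covered length was 0.235 kb in DMSO replicate 1, 0.232 kb in DMSO replicate 2, 0.223 kb in I-BET151 replicate 1 and 0.191 kb in I-BET151 replicate 2. The groups did not overlap, and the means of 0.233 ± 0.00228 and 0.207 ± 0.0229 kb (SD, n = 2 each) differed by −0.0265 kb. RFX6 and PAX4 made up all of it and went opposite ways, and with windows of 10 kb, which leave out the neighbours of PAX4, the difference was 0.0793 kb. Leaving out I-BET151 replicate 1 gave −0.0427 kb and leaving out I-BET151 replicate 2 gave −0.0103 kb. Over all protein-coding loci the DMSO mean was 1.51 kb and the I-BET151 mean 1.31 kb, a difference of −0.204 kb.

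Most of the wider endocrine program also lacked peaks at its starts, though more of its windows held some. Of 26 further endocrine genes (factors, hormones, granule proteins and parts of the secretory machinery) 14 had no peak in the window, against 24.2% of all protein-coding loci. No peak stood at an own start in any library for 24 of them, against 43.9%, and 2 had one in all 4 libraries, against 46.9%. These 2 were CPE, a carboxypeptidase that trims prohormones, and SYP, a synaptic vesicle protein. The SYP peak stood at another transcript start than the canonical one, which was 8.30 to 8.34 kb from the nearest peak in all 4 libraries. The CPE window had 1.17 and 1.12 kb of peaks in the DMSO libraries against 1.16 and 1.20 kb after I-BET151, and the SYP window 1.21 and 2.72 kb against 1.19 and 1.10 kb. Of the 26, 0 had a start peak in the I-BET151 libraries only and 0 in the DMSO libraries only, where the shares of all genes were 0.923% and 2.27%. Covered length was higher in both I-BET151 libraries at 1 of them, against 9.49% of all loci, and lower in both at 4, against 33.7%, and those named here were chosen after their values were seen. The insulin locus, INS, had 6.37 and 6.63 kb in the DMSO libraries against 8.08 and 8.52 kb after I-BET151, with the nearest peak 13.4 to 16.3 kb from the INS start. SST, GHRL and SYP were among the lower loci. SST had 0.349 and 0.289 kb in DMSO against 0 kb after I-BET151, with its nearest DMSO peak 49.6 kb from the start. GHRL had 1.34 and 1.18 kb against 0.644 and 0.676 kb, with its nearest peak 27.8 kb away in all 4 libraries. For SYP the closest values of the groups were 1.209 kb in DMSO replicate 1 and 1.192 kb in I-BET151 replicate 1. The 6 hormone genes (INS, GCG, SST, PPY, GHRL and IAPP), all among the 26, had no peak at an own start in any library.

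**Figure D5:**
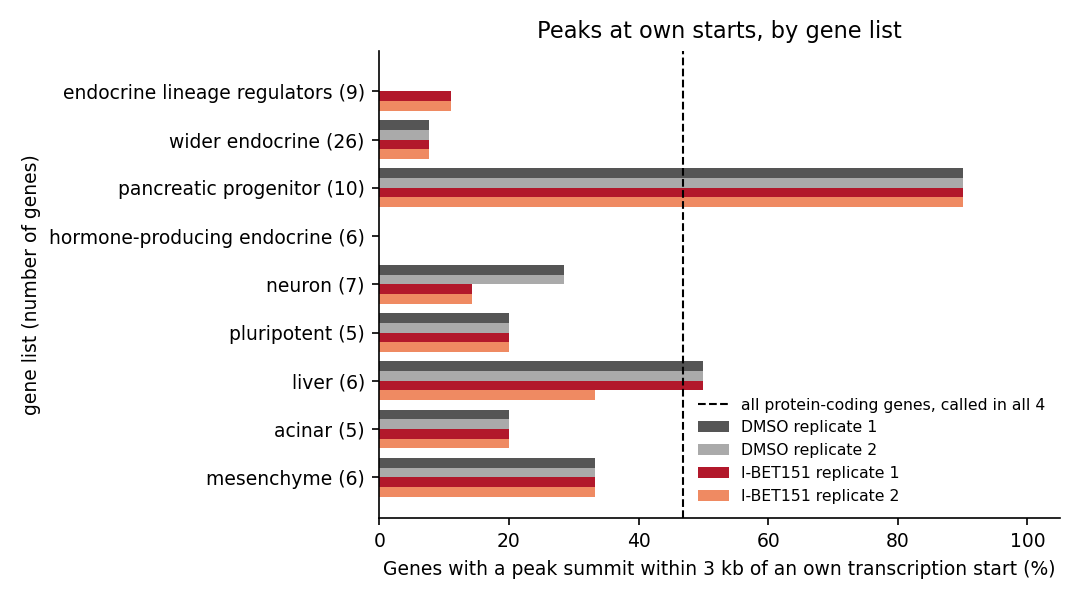
Percent of the genes of each list with a peak summit within 3 kb of an own transcription start, 1 bar per library, with the number of genes in brackets. The dashed line marks 46.9%, the share of all protein-coding genes with such a peak in all 4 libraries, and the PP list stands above it at 90% while the endocrine lists stand below it.

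The labelled cell type was read from markers of PPs. Of 10 PP genes, 9 had a peak at an own start in all 4 libraries, among them PDX1, NKX6-1 and SOX9, and PTF1A had none. Covered length was higher in both I-BET151 libraries at 6 of these 10 and lower in both at 0, against 9.49% and 33.7% of all loci. Markers of other cells were called at fewer starts. A peak at an own start in all 4 libraries was present at 1 of 7 neuronal genes (TUBB3), 1 of 5 pluripotency genes (LIN28A), 2 of 6 liver genes (APOA1 and HNF4A), 1 of 5 acinar genes (CPA1) and 2 of 6 mesenchymal genes (PDGFRB and VIM). The canonical PDGFRB start was under a peak in DMSO replicate 2 only. Elsewhere the nearest peak lay 7.59 to 7.63 kb from it, so that the call rests on another transcript start. SNAP25, a gene of neurosecretion, had a start peak in both DMSO libraries only. Covered length was lower in both I-BET151 libraries at 2 of the 7 neuronal, 2 of the 6 liver, 1 of the 5 acinar, 2 of the 6 mesenchymal and 0 of the 5 pluripotency genes, and higher in both at 1, 0, 0, 1 and 0 of them. Among the lower ones, singled out after their values were seen, COL1A1 had 1.85 and 1.94 kb in the DMSO libraries against 0.463 and 0.41 kb after I-BET151, and APOA1 4.12 and 4.24 kb against 2.57 and 1.96 kb. No library had a peak at an own start of COL1A1, whose nearest peak lay 9.25 and 9.26 kb away in DMSO and 50.5 kb after I-BET151. VIM, the mesenchymal gene that was higher in both, had 2.55 and 2.64 kb in DMSO against 2.87 and 2.93 kb. The part of these other cell types in the RFX6 or PAX4 values was not tested.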

How the data were processed

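H3K27ac ChIP-seq of MEL1-derived PPs comprised 2 DMSO and 2 I-BET151 libraries with 4 inputs. Per the submitters' processing notes the authors used Bowtie2 2.2.5 and MACS2 2.1.2 with hg38, and the deposited files are 1 peak list per H3K27ac library, each called against an input. The deposited columns hold the fold enrichment over local input (a ratio), −log10 p-values and −log10 q-values, and a display score that was not used. The lowest −log10 q-value was 1.30 to 1.36, so that the lists hold peaks at q of 0.05 or less.

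The lists held 13606 and 14248 peaks in DMSO and 12887 and 12312 in I-BET151. ChIP reads at each summit and the library depths (7.96, 9.84, 7.76 and 8.04 M ChIP reads, 2.67 to 3.04 M input reads) were worked out from the fold, which MACS2 computes with a pseudocount of 1, and the Poisson p-value. Of all peaks 97.8 to 98.5% were resolved, meaning that exactly 1 solution gave whole reads within 0.02. Of peaks with a single solution before that filter, 100% gave whole reads at a wider tolerance. Depth limits which weak peaks could be listed.

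Gene models came from GENCODE release 44 (hg38) and coordinates are 1-based. With deposited positions the share of summits no more than 3 kb from a protein-coding start was 82.1 to 85.9%, against 17.3 to 18.0% after a shift of 1 Mb. Covered length was summed in each gene body and 50 kb on either side. A peak was assigned to an own start if its summit lay within 3 kb of any transcript start of the gene. Peaks sharing at least 1 bp were merged into regions. Single values were compared by an exact permutation test (two-sided, 6 ways to assign the libraries). Promoter sequences are from RefSeq (GRCh38.p14), and a motif was searched on both strands. Since 2 of the 9 genes had no promoter entry, promoters were not compared as a set. Scripts used Python 3.11.15 with pandas 2.3.3 and scipy 1.17.1, and were tested on simulated peak lists.

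The 9 genes and all other lists were chosen with earlier results of these data known. The genes named are the 9 members, their nearest peaks' genes, members of the wider lists with a peak at an own start, the remaining hormone genes and PTF1A to make their lists' counts readable, and the loci said to be chosen after their values were seen. The values of 1 locus of the wider endocrine list are not reported here. Alternatives were windows of 10 and 100 kb, starts within 1 or 5 kb, a −log10 q-value of at least 5 or 10, equal numbers of top-ranked peaks, merging within 500 bp, a 50% coverage rule, leaving out each library and a block by replicate number. The FASTQ reads and the input libraries themselves were not used here.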

Additional observations from a re-analysis of the deposited data

How the results depend on the processing

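Every count over the 9 genes and the differences at RFX6 and PAX4 kept their direction when −log10 q was at least 5 or 10, when equal numbers of top-ranked peaks were used and when any 1 library was left out. With windows of 10 kb the mean difference over the 9 loci turned positive, to 0.0793 kb, because the neighbours of PAX4 dropped out. The loci lower in both I-BET151 libraries and the lost regions then numbered 0. With windows of 100 kb, 2 loci were higher in both I-BET151 libraries (RFX6, and NEUROG3 through FAM241B), 4 had no peak and 2 regions were lost, the second lying 111 kb from CHGA at ITPK1. Leaving out 1 library at a time gave mean differences of −0.0427 to −0.0103 kb, the latter without I-BET151 replicate 2. With the replicate number as a block the mean difference was −0.0265 kb, and the counts of higher, lower, gained and lost were 1 each, as without the block. Libraries with the same replicate number showed no shared shift (correlation of replicate deviations 0.0118 over 15752 regions, 2 pairs). With 2 pairs this cannot tell whether they were processed together. Weaker acetylation than the listing threshold, which rises with local input, could not be seen at 7.76 to 9.84 M reads.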
